A study of Homo sapiens with 12 samples.

Results

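Distal intronic regions are stretches of accessible chromatin inside a gene but away from any gene start. Here they are the regions of the ATAC-seq count table that lay on chromosomes 1 to 22 inside a protein-coding gene of GENCODE release 44, overlapped no exon of any gene and were more than 5 kb from every annotated transcription start. This rule used position only, and it selected 4140 of the 30170 regions, of which 4138 reached the level needed for testing. ATAC-seq lets a transposase insert adapters into open DNA, so the count of a region rises with its accessibility. The cells were HCT116, an established human colorectal carcinoma line, and 4 derivatives were compared with 3 libraries each. EV cells carried the empty vector. EHF cells were stably transfected with an EHF plasmid (pcDNA3.1), and clones resistant to geneticin (G418) were isolated. CDX1 cells were transduced with a retrovirus carrying CDX1 and green fluorescent protein (MSCV-IRES-GFP) and sorted for fluorescence. EHF+CDX1 cells were made from the CDX1 line by transfecting the EHF plasmid and selecting resistant clones, so they carry the CDX1 insertion and went through both routes of selection. The methods name an empty-vector control for the plasmid, and whether the EV line also went through transduction and sorting is not stated there. Each group is 1 derived line. The labels do not say whether its libraries came from separate cultures, so p-values measure only the spread between these libraries, which may be technical.

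Introns of long genes hold many enhancers, short stretches where sequence-specific transcription factors bind and from which they act on promoters at a distance. EHF belongs to the epithelium-specific branch of the ETS family, whose members recognise a GGAA core. CDX1 is a caudal-type homeobox factor of the intestinal epithelium that recognises AT-rich sites. AP-1, a dimer of FOS and JUN proteins, is the factor most widely associated with enhancers of carcinoma cells.

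The sequences of 9 distal intronic regions on which the results turn are given first. They are among the regions that passed the test without the library that stands apart, and those called for an interaction of the factors. They were read from the plus strand of hg38, and capitals mark exact matches on either strand, within the central 150 bases, to AP-1 (TGANTCA), ETS (AGGAAGT or CGGAAGT), CDX (TTTATG or TTTATT) or TCF (CTTTGA).
SEMA3A (chr7:84022792-84023004): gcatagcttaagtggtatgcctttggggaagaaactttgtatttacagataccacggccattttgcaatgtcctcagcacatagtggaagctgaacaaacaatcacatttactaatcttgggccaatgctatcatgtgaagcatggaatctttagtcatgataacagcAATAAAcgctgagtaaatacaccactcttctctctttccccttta
GRIN3A (chr9:101673783-101674047): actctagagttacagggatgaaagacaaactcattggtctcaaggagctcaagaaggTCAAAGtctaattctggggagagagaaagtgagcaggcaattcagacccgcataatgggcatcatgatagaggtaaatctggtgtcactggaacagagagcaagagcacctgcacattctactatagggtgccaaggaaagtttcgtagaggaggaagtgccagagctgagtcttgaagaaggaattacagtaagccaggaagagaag
FOXP2 (chr7:114243146-114243375): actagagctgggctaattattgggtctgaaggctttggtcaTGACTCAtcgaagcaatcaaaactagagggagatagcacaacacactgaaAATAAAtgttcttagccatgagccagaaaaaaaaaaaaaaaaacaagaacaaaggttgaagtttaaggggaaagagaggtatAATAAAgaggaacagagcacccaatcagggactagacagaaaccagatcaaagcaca
GRM3 (chr7:86846906-86847056): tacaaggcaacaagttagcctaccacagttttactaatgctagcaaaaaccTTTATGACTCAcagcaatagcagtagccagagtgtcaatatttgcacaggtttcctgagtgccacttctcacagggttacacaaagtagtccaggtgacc
EYS (chr6:64301678-64301828): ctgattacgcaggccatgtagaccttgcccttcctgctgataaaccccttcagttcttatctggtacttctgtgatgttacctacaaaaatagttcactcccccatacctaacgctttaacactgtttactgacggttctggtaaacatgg
SPTBN1 (chr2:54574261-54574413): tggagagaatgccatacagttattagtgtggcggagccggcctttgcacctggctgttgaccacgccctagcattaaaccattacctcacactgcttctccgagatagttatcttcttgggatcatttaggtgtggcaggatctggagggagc
TBX15 (chr1:118960703-118960853): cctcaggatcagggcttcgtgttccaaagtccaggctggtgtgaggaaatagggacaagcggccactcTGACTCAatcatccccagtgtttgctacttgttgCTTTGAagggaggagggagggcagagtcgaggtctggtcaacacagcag
SLC44A1 (chr9:105318980-105319130): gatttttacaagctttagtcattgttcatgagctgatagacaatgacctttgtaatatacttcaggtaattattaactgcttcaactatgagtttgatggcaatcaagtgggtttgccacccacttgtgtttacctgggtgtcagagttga
ABCC4 (chr13:95256282-95256486): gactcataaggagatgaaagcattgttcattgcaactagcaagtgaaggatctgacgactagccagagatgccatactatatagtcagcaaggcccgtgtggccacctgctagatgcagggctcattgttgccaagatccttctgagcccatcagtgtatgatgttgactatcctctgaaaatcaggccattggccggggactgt
The SEMA3A region holds 1 CDX match and the GRIN3A region 1 TCF match. The FOXP2 region holds 1 AP-1 match and 2 CDX matches, and the TBX15 region 1 AP-1 match and 1 TCF match. In the GRM3 region a CDX match and an AP-1 match overlap. The EYS, SPTBN1, SLC44A1 and ABCC4 windows hold none of these letters. Of all 30170 regions, 17.1% hold the AP-1 letters in the same window, 14.1% the CDX letters, 9.26% the TCF letters and 8.95% the ETS letters. A match describes the letters and is not evidence of binding.

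Library totals ran from 567366 to 2443334 counts. Much of this lay in 192 regions that match mitochondrial DNA, which took 65.0% to 73.8% of EV counts and 14.5% to 37.2% in the other libraries. A further 11 regions, which lie on exons of the EHF and CDX1 genes, took in reads of the introduced cDNA. EHF exons held 33 to 100 counts in EV, 30 to 48 in CDX1, 543188 to 1536042 in EHF and 91907 to 759842 in EHF+CDX1 libraries. CDX1 exons held 18 to 104 counts in EV and EHF libraries, whereas CDX1 libraries held 524981 to 1916479 and EHF+CDX1 libraries 77147 to 545352. Both factors were therefore found where the labels put them. Outside those regions the libraries held 148300 to 912672 counts, the highest in EHF+CDX1 replicate 2. Regions near the starts of 9 of 10 epithelial marker genes were in the table, with a summed count of 56 to 764 per library. No region lay near the starts of 4 leukocyte and 2 endothelial markers, and of 4 fibroblast markers only COL1A1 had one, with 6 to 33 counts. Levels below are counts scaled to library size by TMM (CPM), in which 3 counts equal 0.677 CPM in EHF+CDX1 replicate 2 and up to 4.51 CPM in EV replicate 3.

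EHF+CDX1 replicate 2 stood apart in the distal intronic regions. Its median count per region was 19, against 2 to 9 in the other 11 libraries. It gave the highest CPM of all 12 libraries in 1250 of the 4138 regions, or 30.2%. Across the 4116 regions without a mitochondrial match, its log2 CPM correlated with the 9 libraries of other lines at r = -0.06 to 0.08 and with the other EHF+CDX1 libraries at 0.28 and 0.40. The other 11 libraries correlated with each other at 0.36 to 0.85. These values are across regions, which share depth and base composition and are not replicates. The number of regions called in each EHF+CDX1 comparison and in the interaction is therefore given with and without this library. Counts shared between comparisons, counts by gene list, host gene or chromosome, and motif shares rest on all 12 libraries.

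The distal intronic regions were narrow and lay deep inside long genes. Their median length was 151 bases and their median GC content 48.3%, against 63.6% for the 17400 regions within 5 kb of a gene start and 48.2% for 6345 distal intergenic regions. The median distance to the nearest start of any gene was 17.6 kb, with quartiles of 9.65 and 35.2 kb and a largest value of 479 kb. The smallest was 5009 bases. A total of 2101 host genes held them, with a median length of 245 kb, and 1208 of these genes held 1 region each. The 161 genes with 5 or more accounted for 1053 regions. Of the 3494 regions in an intron of the host's canonical transcript, 943 (26.99%) lay in the first intron. ZFPM2, which encodes a cofactor of GATA proteins, held 18 regions, the most of any gene. GPC5, a heparan sulfate proteoglycan, and MYO16, an unconventional myosin, held 13 each, and LSAMP, a neuronal adhesion protein, and PTH2R, a parathyroid hormone receptor, held 12 each. CSMD3, NAV2, PCDH7 and SLC8A1 held 11 each and DLG2 held 10.

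The motif content of the distal intronic regions differed from that of gene starts. The AP-1 letters stood in 30.9%, against 23.5% of distal intergenic regions and 9.98% of gene starts, and the CDX letters in 23.1%, against 21.7% and 8.17%. RUNX (TGTGGT), the motif of the runt-domain factors, was found in 15.6% and TCF, the motif of the Wnt effectors, in 12.9%, against 7.30% and 6.03% of gene starts. The AGATAA letters of the GATA factors stood in 8.82% and TEAD (GGAATG) in 13.4%, against 3.14% and 7.67%. The GC box (GGGCGGG), which binds SP-family factors, went the other way at 2.97% against 30.0%. ETS stood in 7.005% against 10.4%, and the CTCF core (read as AGGGGGC, as AGGTGGC or as AGATGGC) in 14.9% against 18.1%. The classes differ in base composition, as given above, and its part in these shares was not tested.

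Most of the regions with high counts in every library matched mitochondrial DNA. Of the 10 with the highest CPM in their lowest library, 9 held such a match, and 22 of all 4140 did. The highest was in intron 3 of PDZRN4 (chromosome 12, 41363592 to 41363744), where the EV mean was 17218 ± 2185 CPM (SD, n = 3), that of EHF 11351 ± 4297, that of CDX1 12289 ± 4002 and that of EHF+CDX1 7953 ± 2953. The exception was a region in intron 1 of RTF1, a subunit of the Paf1 elongation complex, 9.49 kb from the nearest start (chromosome 15, 41426624 to 41426780). It had 983, 961 and 715 counts in EV, 945, 876 and 1063 in EHF, 808, 787 and 697 in CDX1 and 970, 938 and 511 in EHF+CDX1, in the order of replicates 1, 2 and 3. With mitochondrial matches set aside, a choice made after the values were seen, it was followed by regions in ACSL3, RARB, MEF2A, ACOX3, CSGALNACT1, GSE1, RTN1, PTPRN2 and CRB1. Mean EV levels of these 9 ran from 40.8 CPM in CRB1 to 431 CPM in RARB, the retinoic acid receptor beta gene. The sequences of the RTF1, ACSL3, MEF2A, ACOX3, GSE1, RTN1 and CRB1 regions hold long runs of C or G. That of PTPRN2 repeats a unit in tandem, and that of RARB does neither. The part of such sequence in the counts was not tested.

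The share of counts that fell in distal intronic regions did not separate the lines. The mitochondrial regions and those on exons of EHF and CDX1 were left out, and other exonic regions were kept in the total. The share was 7.35%, 9.74% and 7.24% in EV replicates 1, 2 and 3, and 7.20%, 9.94% and 7.29% in EHF. It was 7.49%, 9.66% and 7.46% in CDX1, and 7.39%, 9.77% and 7.19% in EHF+CDX1. The EV mean was 8.11% ± 1.41 (SD, n = 3), the EHF mean 8.14% ± 1.56, the CDX1 mean 8.20% ± 1.26 and the EHF+CDX1 mean 8.12% ± 1.43, and the ranges of all 4 groups overlapped. In every line replicate 2 was the highest, at 9.66% to 9.94% against 7.19% to 7.49% in replicates 1 and 3. The widest 95% Wilson interval reached 0.132 percentage points to each side and covers counting error only. The labels do not say what the replicate number stands for. Regions with the AP-1 letters held 30.8% to 37.6% of the counts in distal intronic regions, and the means were 33.2% ± 1.54 (SD, n = 3) for EV, 34.3% ± 3.20 for EHF, 33.8% ± 3.37 for CDX1 and 31.7% ± 1.26 for EHF+CDX1. The 4 groups overlapped.

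**Figure D1:**
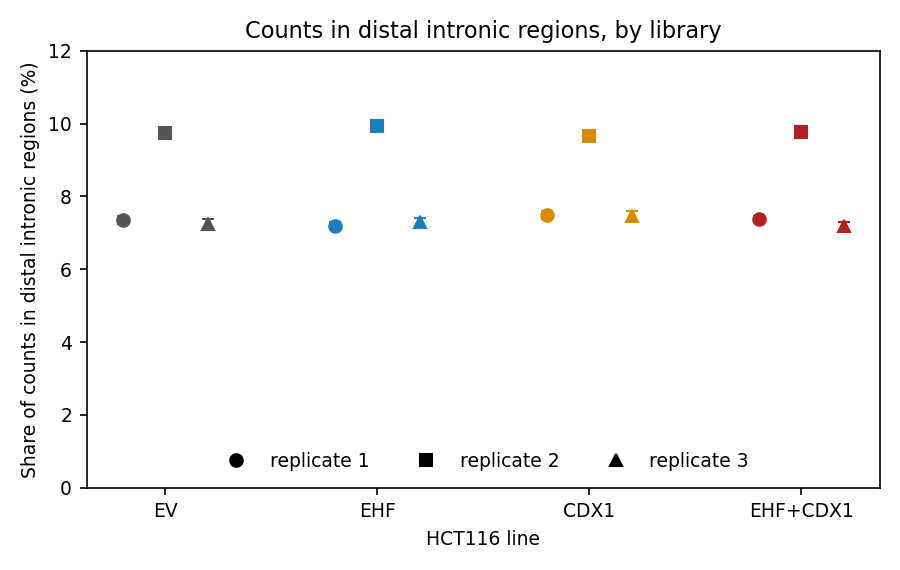
Share of counts (%) that fell in distal intronic regions, for 3 libraries of each line, with mitochondrial regions and those on EHF and CDX1 exons left out. Error bars are 95% Wilson intervals, some smaller than the symbol. Replicate 2 lies at 9.66% to 9.94% in all 4 lines and replicates 1 and 3 at 7.19% to 7.49%.

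EHF+CDX1 cells were compared with EV, a line that lacks both factors and may differ in its route of selection, so these cannot be told apart. Against a background of 2.57% of all 30154 regions called, 139 of 4138 distal intronic regions (3.36%) had an adjusted p under 0.05, 85 higher and 54 lower, by edgeR's quasi-likelihood test with Benjamini-Hochberg adjustment over all regions. The background shares were 1.79% higher and 0.779% lower. Gene starts were called at 1.63% and distal intergenic regions at 4.12%. Without EHF+CDX1 replicate 2 the 139 fell to 7, and without EV replicate 2 to 19. The 776 calls over all regions fell to 60 and 145 in the same runs. Leaving out EV replicate 1 or 3 left 70 in each case, beside 384 and 335 of all regions. Without EV replicate 1 the larger share was lower, at 38 against 32 higher. DESeq2 gave 6 higher and 8 lower, and the replicate number as a block 125 and 138. In the other runs more were higher than lower.

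The 85 higher regions were close to empty in the other lines. Their median count was 0 in each EV library, 1 in each EHF and CDX1 library, and 10, 46 and 5 in EHF+CDX1 replicates 1, 2 and 3, which is 5.94, 10.4 and 4.15 CPM. In 83 of the 85, no EV library exceeded 3 counts, and 33 had no EV count at all. EHF+CDX1 replicate 2 supplied a median of 76.1% of their EHF+CDX1 counts. On the CPM scale replicate 1 lay above every EV library in 85 of 85 and replicate 3 in 81. These libraries took part in the calls, and 1 count lies above an EV group without counts. The tally therefore followed largely from the selection and is not a replication. Without replicate 2, 80 were still tested and 4 were called. The regions had been found by calling peaks and merging them over the samples, so a region that is low in 1 line had to be high in another to be listed.

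The 54 lower regions had counts in all lines. Their median level was 9.33, 16.2 and 9.77 CPM in EV replicates 1, 2 and 3, between 4.73 and 10.1 CPM in the single-factor libraries, and 3.56, 2.82 and 2.49 CPM in EHF+CDX1. Without EHF+CDX1 replicate 2, 3 of the 54 were called. Over all distal intronic regions the median log2 fold change was 0.17, against 0.18 over all regions. With regions empty in 1 group set at their bound the medians were 0.07 and 0.13, and voom with quantile normalisation gave -0.20 for the distal intronic regions.

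**Figure D2:**
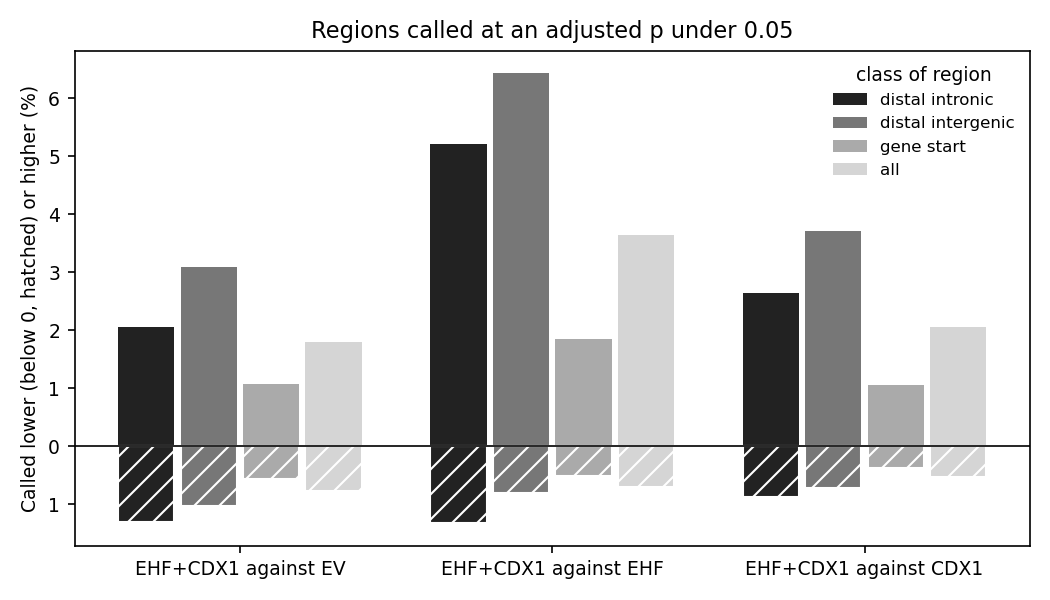
Percentage of tested regions of each class called higher (above 0) or lower (below 0, hatched) at an adjusted p under 0.05 in the 3 comparisons of EHF+CDX1, all 12 libraries included. Distal intronic regions were called at 3.36%, 6.55% and 3.50% in the order shown, between gene starts and distal intergenic regions in each comparison.

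EHF+CDX1 cells were next compared with each single-factor line. They were made from the CDX1 line and not from the EHF line. Against EHF, an effect of CDX1 therefore cannot be told apart from the separate derivation of the lines. Against CDX1, an effect of EHF cannot be told apart from the further transfection and selection of clones. Against EHF, 271 distal intronic regions were called (6.55%, background 4.35%), 216 higher and 55 lower (background 3.65% and 0.7%). Against CDX1, 145 were called (3.50%, background 2.6%), 109 higher and 36 lower (background 2.06% and 0.541%). Without EHF+CDX1 replicate 2 these counts were 11 and 4, while those over all regions went from 1311 to 74 and from 783 to 59. Leaving out EHF replicate 2 gave 78 against EHF, and leaving out CDX1 replicate 2 gave 19 against CDX1. Over all regions these runs gave 410 and 122. Without EHF replicate 1 there were 140 and without EHF replicate 3 there were 124, beside 746 and 633 of all regions. Against CDX1 there were 50 without CDX1 replicate 1 and 68 without CDX1 replicate 3, beside 323 and 364. Leaving out EHF+CDX1 replicate 1 gave 88 against CDX1 and leaving out its replicate 3 gave 239, beside 543 and 1250. With voom and quantile normalisation the split was 150 higher and 78 lower against EHF, and 108 and 95 against CDX1. The comparisons share the EHF+CDX1 libraries. Of 274 regions higher in at least 1 of the 3 comparisons, 41 were called in all 3, and of 112 lower in at least 1, 5 were. The matching counts over all regions were not taken, so nothing particular to distal intronic regions is read from these.

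The SEMA3A and GRIN3A regions were called higher in all 3 comparisons with and without EHF+CDX1 replicate 2 and under each alternative run. They are named for that reason, after their values were seen. SEMA3A encodes a secreted semaphorin that guides axons and vessels, and its region lies in intron 6 of 16, 172 kb from the nearest start. Its counts were 2, 1 and 2 in EV, 1, 7 and 1 in EHF, 2, 4 and 0 in CDX1 and 27, 81 and 17 in EHF+CDX1. All 3 EHF+CDX1 libraries lay above all 9 others on the CPM scale, at a mean of 16.1 ± 2.08 CPM (SD, n = 3) against 1.96 ± 1.18 in EV, 1.56 ± 1.11 in EHF and 1.28 ± 1.11 in CDX1. Its log2 fold change in edgeR was 3.21 ± 0.62 (SE, adjusted p = 0.00057) against EV, 3.09 ± 0.55 (adjusted p = 5.9e-05) against EHF and 3.40 ± 0.59 (adjusted p = 5.4e-05) against CDX1. Without replicate 2 the changes were 3.09, 2.99 and 3.28, with adjusted p of 0.028, 0.013 and 0.0063.

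GRIN3A encodes a subunit of NMDA-type glutamate receptors, and its region lies in intron 2 of 8, 60.3 kb from the nearest start. Counts were 3, 1 and 0 in EV, 4, 1 and 1 in EHF, 0, 3 and 2 in CDX1 and 32, 91 and 11 in EHF+CDX1. The EHF+CDX1 libraries again did not overlap the others, with a mean of 16.2 ± 6.19 CPM (SD, n = 3) against 1.33 ± 1.74 in EV. The log2 fold changes were 3.58 ± 0.66 against EV, 3.55 ± 0.60 against EHF and 3.65 ± 0.63 against CDX1 (SE), with adjusted p in edgeR of 0.00027, 2.1e-05 and 4e-05. Without replicate 2 they were 3.35, 3.31 and 3.42, with adjusted p of 0.029, 0.015 and 0.012.

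The other calls against EV that stood without EHF+CDX1 replicate 2 were the MTERF1 and FOXP2 regions, which were higher, and regions in ABCC4, ANK3 and ENSG00000286221, which were lower. MTERF1 encodes a terminator of mitochondrial transcription. Its region, outside the introns of the canonical transcript and 116 kb from any start, had 0, 0 and 0 counts in EV and 15, 54 and 7 in EHF+CDX1, at least 2.72-fold higher against a floor of 3 counts per library (edgeR adjusted p = 0.00078, and 0.044 without replicate 2). The single-factor libraries held 1, 0 and 0 counts in EHF and 1, 3 and 0 in CDX1.

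FOXP2 encodes a forkhead transcription factor, and its region is 44.6 kb from a start of the gene. Counts were 2, 3 and 0 in EV, 5, 14 and 9 in EHF, 8, 17 and 5 in CDX1 and 21, 54 and 12 in EHF+CDX1. The single-factor lines lay between, at 6.16 ± 1.87 CPM (SD, n = 3) in EHF and 7.27 ± 1.20 in CDX1, against 1.42 ± 1.23 in EV and 11.5 ± 1.37 in EHF+CDX1. In edgeR the change from EV to EHF+CDX1 was 2.78 ± 0.62 (SE) on the log2 scale, with an adjusted p of 0.0045, and of 0.0499 without replicate 2.

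Of these, the MTERF1, FOXP2 and ANK3 calls against EV held under each alternative run. ABCC4, an efflux pump of the multidrug resistance family, held a lower region in its first intron, 17.5 kb from the nearest start. Counts were 13, 33 and 7 in EV, 16, 37 and 4 in EHF, 11, 41 and 10 in CDX1 and 6, 33 and 3 in EHF+CDX1. The log2 fold change against EV was -1.68 ± 0.43 (SE, edgeR adjusted p = 0.016), and -2.38 without replicate 2. The ABCC4 call was lost under 5 alternatives, among them DESeq2, voom and the removal of EV replicate 2, and the ENSG00000286221 call under DESeq2 and the same removal. The ANK3 region lies in intron 18 of 43 of the gene for ankyrin-G, which ties membrane proteins to the spectrin skeleton. It had 26, 23 and 10 counts in EV, 14, 23 and 5 in EHF, 21, 23 and 12 in CDX1 and 4, 26 and 5 in EHF+CDX1. On the CPM scale the highest EHF+CDX1 library lay below the lowest EV library, and the log2 change was -2.13 ± 0.43 (SE, edgeR adjusted p = 0.0011), or -2.61 without replicate 2.

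**Figure D3:**
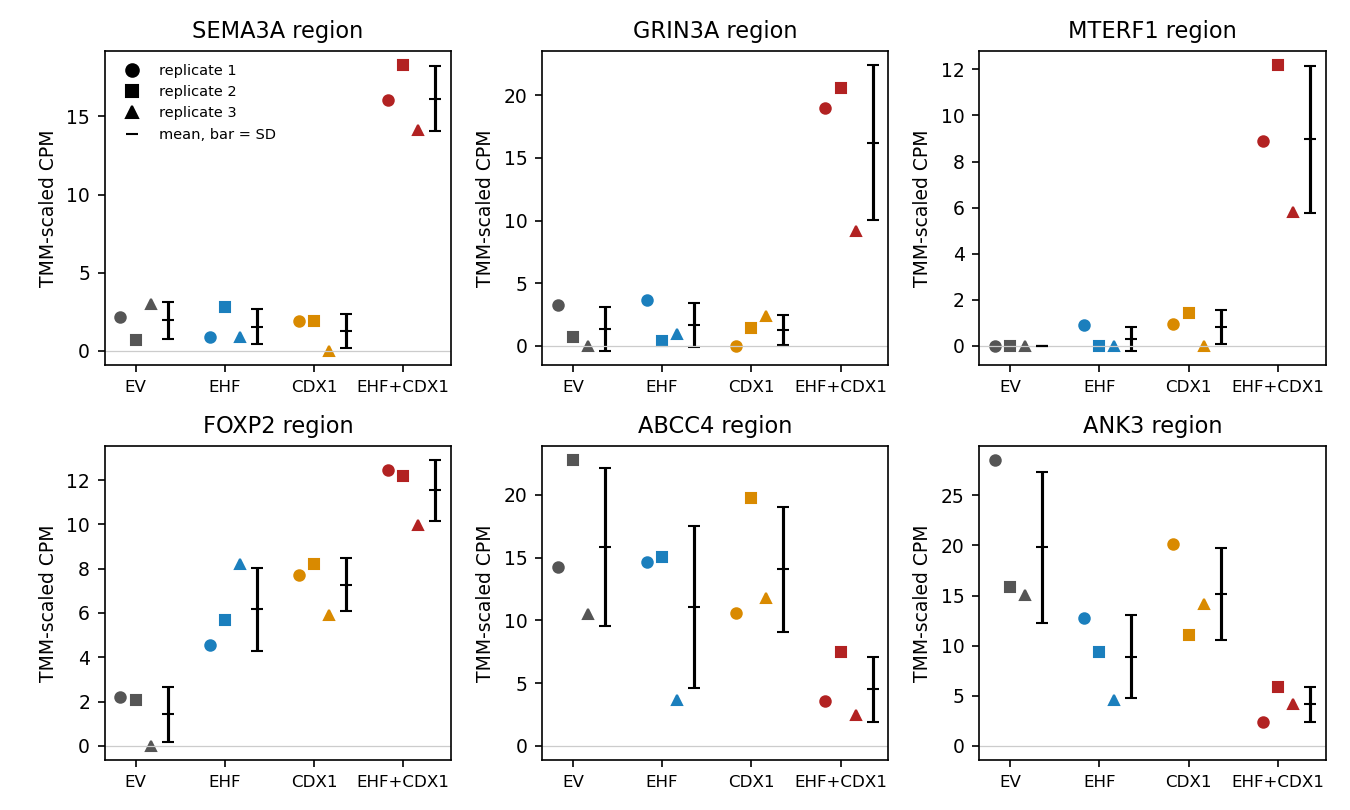
TMM-scaled CPM of 6 distal intronic regions in each of 12 libraries (circles, squares and triangles are replicates 1, 2 and 3), with the mean and SD of 3 libraries beside each group. The 3 EHF+CDX1 libraries lie above every other library in the SEMA3A, GRIN3A, MTERF1 and FOXP2 panels and below every EV library in the ABCC4 and ANK3 panels.

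By fold change, the 10 highest regions against EV among 41 with a mean of at least 20 counts and no overlap of the groups lay in SPAG16, MTERF1, PID1, LRRTM4, COL8A1, PRDM9, C1orf21, GRIK2, CNTNAP2 and GOLIM4. SPAG16 is a structural protein of cilia and flagella. Its region (chromosome 2, 213641185 to 213641335, intron 10) had no EV count, 0, 1 and 2 counts in EHF, 1, 1 and 2 in CDX1 and 9, 79 and 4 in EHF+CDX1, at least 2.68-fold higher than EV (edgeR adjusted p = 0.00047). PID1, whose product binds a lipoprotein receptor, held a region in intron 1 (chromosome 2, 229160214 to 229160364) with no EV count and 13, 58 and 4 counts in EHF+CDX1, at least 2.44-fold higher (adjusted p = 0.0016). In both, replicate 2 held most of the counts. Replicates 1 and 3 lay above every EV library, which the rule for naming these regions required. The bounds for LRRTM4, COL8A1, PRDM9 and C1orf21, also without an EV count, ran from 1.96-fold to 2.12-fold. GRIK2, CNTNAP2 and GOLIM4 each had 1 EV count. For GRIK2, a kainate receptor subunit, the EHF+CDX1 counts were 10, 51 and 9, a ratio of 28.9 (95% counting interval 5.02 to 1159), and for CNTNAP2, a neurexin-family protein, they were 12, 54 and 7, a ratio of 30.2 (5.25 to 1207). Of these 10 regions the MTERF1 region alone was called without replicate 2.

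Only 7 lower regions against EV met the same rule, and 6 of them lay in PTPRN2, ARHGEF28, SORCS3, STK32B and ERICH1, with SORCS3 holding a pair. The PTPRN2 region (chromosome 7, 158151352 to 158151520), in intron 6 of a receptor-type phosphatase gene of secretory granules, had 106, 164 and 79 counts in EV, 102, 133 and 93 in EHF, 150, 129 and 62 in CDX1 and 96, 57 and 21 in EHF+CDX1. Its log2 change against EV was -2.01 ± 0.47 (SE, edgeR adjusted p = 0.0069). The sequence of this region is the tandem repeat mentioned above, and its part in the change was not tested. The SORCS3 regions, in a sortilin-family receptor gene, changed by -1.70 ± 0.38 and -1.47 ± 0.38 (adjusted p = 0.0041 and 0.017). ERICH1 changed by -1.33 ± 0.36 (adjusted p = 0.025). The ARHGEF28 and STK32B regions match mitochondrial DNA, and the mitochondrial share of counts was higher in EV than in every other library, as given above. The part of that share in their changes of -1.74 ± 0.49 and -1.60 ± 0.47 was not tested. None of these 6 regions was called without EHF+CDX1 replicate 2, with adjusted p of 0.072 to 0.3.

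Against EHF, the 5 highest regions by fold change lay in SPTBN1, CSMD3, C1orf21, PRICKLE1 and SLC44A1. SLC44A1 encodes a choline transporter, and its intron 3 region had 0, 3 and 0 counts in EV, 0, 1 and 0 in EHF, 4, 2 and 2 in CDX1 and 13, 83 and 12 in EHF+CDX1. The ratio to EHF was 68.6 (95% counting interval 12.1 to 2734), with an edgeR adjusted p of 2.1e-06, and 0.013 without EHF+CDX1 replicate 2. CSMD3, C1orf21 and PRICKLE1 had no count in EHF and were at least 2.92-fold, 2.89-fold and 2.74-fold higher in EHF+CDX1. Besides SEMA3A, GRIN3A, MTERF1, SPTBN1 and SLC44A1, the regions called with and without replicate 2 lay in SEMA3C, VGLL3, CCDC59 and FAT3. The SEMA3C region, in intron 2 of another semaphorin gene (chromosome 7, 80870072 to 80870222), had 1 count in EV, 1 in EHF, 1 in CDX1 and 16, 32 and 8 in EHF+CDX1. VGLL3, a cofactor of TEAD proteins, had 0, 0 and 0 counts in EHF and 7, 15 and 10 in EHF+CDX1.

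The 5 lowest against EHF lay in CDH13, BRINP2, CUEDC1, GRIA1 and MYO16, with log2 changes of -2.42 ± 0.53, -2.14 ± 0.44, -2.07 ± 0.51, -1.90 ± 0.50 and -1.52 ± 0.43 (SE) and edgeR adjusted p of 0.0029, 0.00085, 0.0068, 0.013 and 0.024. CDH13, the membrane-anchored T-cadherin, had 17, 36 and 8 counts in EHF and 6, 10 and 1 in EHF+CDX1 in intron 1, 26.97 kb from the nearest start (chromosome 16, 82654005 to 82654171). The BRINP2 region (chromosome 1, 177181776 to 177181953), in a gene of neural tissue, had 11, 33 and 6 counts in EV, 17, 33 and 18 in EHF, 10, 26 and 13 in CDX1 and 4, 14 and 6 in EHF+CDX1. It was lower in EHF+CDX1 than in all 3 other lines, at 3.51 ± 1.34 CPM against means of 12.5 to 15.1 CPM. Without EHF+CDX1 replicate 2 none of the 5 lower regions was called, with adjusted p of 0.056 to 0.27.

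Against CDX1, the 5 highest lay in GRM3, EYS, CSMD3, NLGN1 and CADPS2, and the 5 lowest in PTPRN2, SHTN1, PRKAA2, ABCC4 and TBC1D5. NLGN1, a synaptic adhesion protein (chromosome 3, 173451634 to 173451784, intron 1), had 0, 1 and 0 counts in CDX1 and 11, 79 and 5 in EHF+CDX1, a ratio of 51.4 (95% counting interval 9.003 to 2051, edgeR adjusted p = 0.00013). CADPS2, a factor of vesicle release, had 0, 1 and 0 against 15, 54 and 6, a ratio of 40.6 (7.06 to 1623, adjusted p = 0.00087). The lower regions changed by -1.69 ± 0.47 in PTPRN2, -1.59 ± 0.43 in SHTN1, -1.51 ± 0.41 in PRKAA2 and -1.36 ± 0.37 in TBC1D5 (SE), with adjusted p of 0.025, 0.02, 0.024 and 0.021, and the ABCC4 region lay between them (adjusted p = 0.031). PRKAA2 encodes a catalytic subunit of AMP-activated kinase, and TBC1D5 a regulator of RAB7 trafficking. Of all 10, the GRM3 and EYS regions were called without EHF+CDX1 replicate 2.

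Neither factor alone gave a called distal intronic region against EV. In edgeR 0 of 4138 were called in EHF and 0 in CDX1 (background 0.00995% and 0%), with 185 and 173 at an unadjusted p under 0.05. DESeq2 called 0 in both, and voom called 1 in EHF and 0 in CDX1. How large a change these comparisons could detect was not simulated. The smallest p against EV in EHF cells belonged to regions in COL4A2, CDH13, DGKB, MACC1 and CFAP161. MACC1, a gene associated with metastasis of colon cancer, held an intron 1 region (chromosome 7, 20199510 to 20199672) with 3, 1 and 0 counts in EV, 10, 16 and 8 in EHF, 4, 7 and 6 in CDX1 and 20, 37 and 10 in EHF+CDX1. Its log2 change was 2.42 ± 0.72 in EHF (SE, adjusted p = 0.71) and 2.75 ± 0.68 in EHF+CDX1 (adjusted p = 0.012, and 0.066 without replicate 2). The difference between these lines was 0.33 ± 0.47 (adjusted p = 0.75). The COL4A2 region, in a basement membrane collagen gene (chromosome 13, 110319797 to 110319954), had 2, 4 and 0 counts in EV and 13, 10 and 20 in EHF (log2 change 2.40 ± 0.66, adjusted p = 0.66).

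In CDX1 cells the smallest p belonged to regions in CPQ, FRY, UNC5C, SRGAP1 and FOXP2. The CPQ region, in the last intron of a carboxypeptidase gene (chromosome 8, 97120406 to 97120556), had 1, 0 and 0 counts in EV, 2, 0 and 1 in EHF, 19, 4 and 9 in CDX1 and 3, 11 and 2 in EHF+CDX1. The ratio of CDX1 to EV was 24.4 (95% counting interval 4.08 to 995, edgeR adjusted p = 0.28), and the mean level was 10.3 ± 8.18 CPM in CDX1 and 1.98 ± 0.44 CPM in EHF+CDX1. FRY had 0, 1 and 0 counts in EV and 8, 5 and 8 in CDX1, and UNC5C, a netrin receptor, 1, 2 and 0 and 7, 19 and 7. The sequence of the FRY region holds CDX letters, as do those of the CPQ, SRGAP1 and FOXP2 regions, and that of UNC5C does not. Of all distal intronic regions 23.1% hold them. The GC content of these regions ran from 27.8% in FRY to 40.4% in UNC5C, beside a median of 48.3%, and its part was not tested. Among the regions named for EHF, those in MACC1 and CFAP161 hold ETS letters and those in COL4A2, CDH13 and DGKB do not.

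The interaction asks whether the effects of the factors add up, that is, whether the log2 change in the double line equals that of EHF plus that of CDX1. In edgeR 4 distal intronic regions were called, all above that sum (0.0967%, background 0.123%, of which 0.0696% above and 0.0531% below), and they lay in GRM3, EYS, SPTBN1 and TBX15. GRM3, a metabotropic glutamate receptor gene, had 0, 3 and 1 counts in EV, 0, 1 and 2 in EHF, 0, 0 and 0 in CDX1 and 11, 90 and 7 in EHF+CDX1. The EYS region, in intron 30 of 42 of a photoreceptor gene, had 3, 2 and 1 counts in EV, 0, 1 and 0 in EHF, 0, 0 and 0 in CDX1 and 15, 48 and 5 in EHF+CDX1. SPTBN1, the gene of beta-II spectrin, had 1, 2 and 2 in EV, 0, 0 and 0 in EHF, 1, 1 and 0 in CDX1 and 8, 53 and 11 in EHF+CDX1. TBX15, a T-box factor gene, had 1, 11 and 1 in EV, 1, 0 and 1 in EHF, 1, 1 and 2 in CDX1 and 7, 53 and 2 in EHF+CDX1. All but the EV group of TBX15 were near the floor outside EHF+CDX1, and a single-factor group without counts enters the sum, so the fitted sizes are not bounds. Without EHF+CDX1 replicate 2 no distal intronic region passed, and adjusted p were 0.097 for EYS, 0.19 for SPTBN1, 0.34 for GRM3 and 0.48 for TBX15. Without EV replicate 3 or EHF replicate 2 there was 1 call, without EHF replicate 1 or CDX1 replicate 1 there were 2, and without EHF+CDX1 replicate 3 there were 10.

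To describe levels across the range, regions were ranked into 5 classes of near equal size by their mean CPM over the 6 EHF and CDX1 libraries. These libraries are not among the groups compared with EV here, but they share the fit and its estimate of the spread. A region near 0 in the single-factor lines had to be high elsewhere to be listed and tested, and cannot be called lower, so no direction was read from these classes. The median level of the lowest class was 1.10, 0.691 and 0 CPM in EV and 2.37, 4.74 and 1.66 CPM in EHF+CDX1. That of the highest class was 6.59, 8.98 and 6.01 CPM in EV and 5.34, 5.42 and 5.81 CPM in EHF+CDX1. EHF+CDX1 replicate 2 was the highest of all 12 libraries in 88.3% of the lowest class and 2.54% of the highest. Base composition moved with level, with a median GC of 45.7% in the lowest and 51.0% in the highest class.

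**Figure D4:**
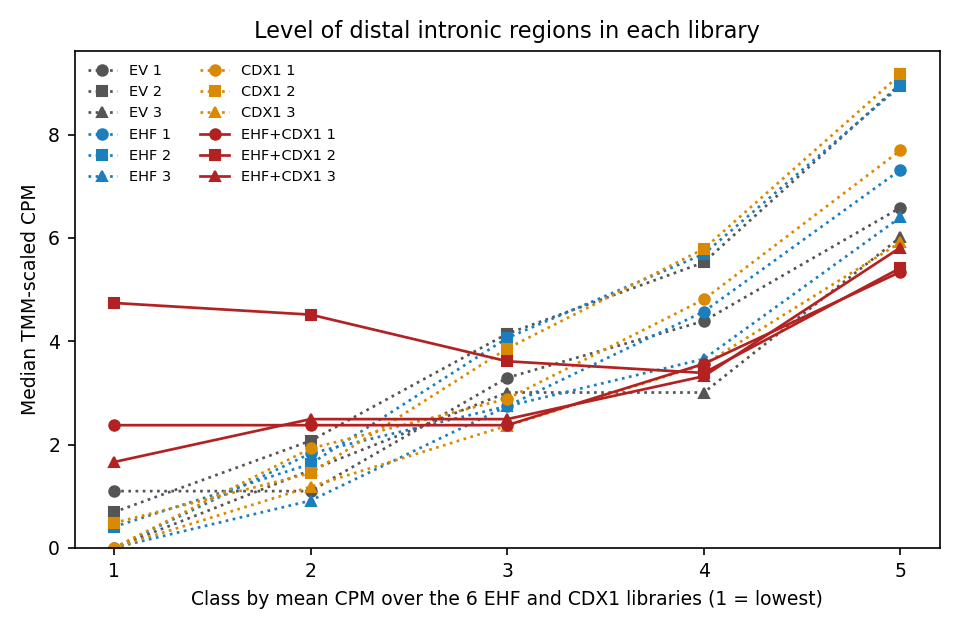
Median TMM-scaled CPM of distal intronic regions in each library, for 5 classes ranked by mean CPM over the 6 EHF and CDX1 libraries (the EV and EHF+CDX1 libraries did not enter the ranking). EHF+CDX1 libraries (solid lines) lie at 1.66 to 4.74 CPM in the lowest class and 5.34 to 5.81 in the highest, and EV libraries at 0 to 1.10 and 6.01 to 8.98. A region near 0 in the single-factor lines had to be high elsewhere to be listed, so no direction is read from the classes.

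The motifs of called regions also differed between directions. The CDX letters stood in 36.5% of the 85 higher regions, 11.1% of the 54 lower regions and 22.98% of 3999 not called. TCF stood in 31.8%, 9.26% and 12.5%, and ETS in 12.9%, 1.85% and 6.95%. AP-1 went the other way, at 17.6%, 40.7% and 31.1%. The CTCF core stood in 3.53%, 13.0% and 15.1%, so its share in lower regions was near that of regions not called. Regions of the lowest class that were not called held CDX letters in 35.1%, AP-1 in 16.9% and CTCF in 6.27%. The same regions held TCF in 18.6% and ETS in 6.66%. Of the 54 lower regions 36 lay in the highest class of level. All regions of that class held AP-1 in 42.6%, CTCF in 16.7%, CDX in 15.7%, TCF in 10.1% and ETS in 6.52%. Among regions with a GC content under 50%, CDX stood in 50.8% of 59 higher regions and 33.1% of 2322 not called, and among those of 50% or more in 3.85% of 26 and 9.004% of 1677. These shares are descriptions and were not tested.

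**Figure D5:**
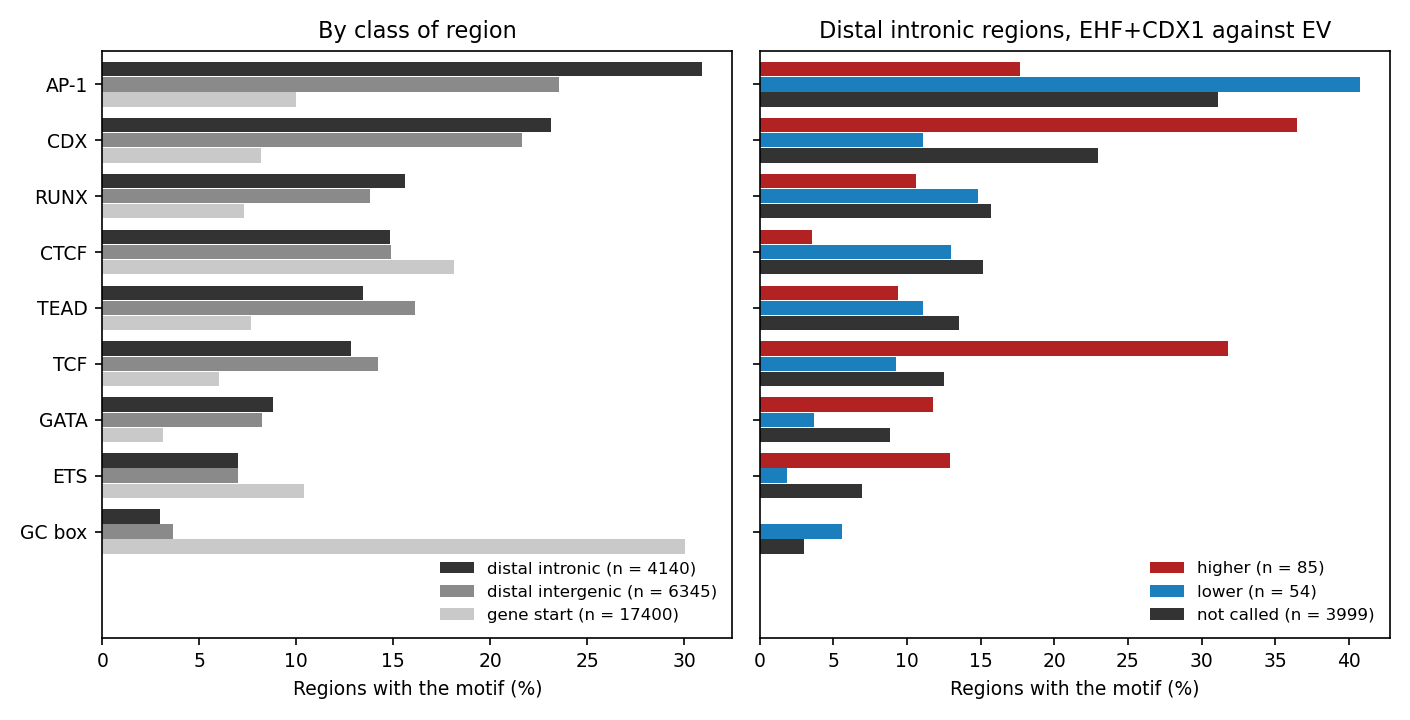
Percentage of regions holding each motif on either strand of the central 150 bases, by class of region (left) and, for distal intronic regions, by call in EHF+CDX1 against EV (right). AP-1 is found in 30.9% of distal intronic regions and 9.98% of gene starts, and CDX in 36.5% of higher and 11.1% of lower regions.

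Host genes were also read by function, from 10 lists chosen with earlier results of these data known. The shares called over all regions were 2.57% against EV, 4.35% against EHF and 2.6% against CDX1. Of 20 tested regions in enterocyte and brush border genes, 1 was called higher against EV and 0 lower. It lies in intron 2 of CDH17, the intestinal cadherin (chromosome 8, 94191986 to 94192136), with 0, 0 and 0 counts in EV, 0, 1 and 0 in EHF, 1, 0 and 2 in CDX1 and 14, 33 and 4 in EHF+CDX1. This is at least 1.93-fold higher (edgeR adjusted p = 0.011), and the call was lost without EHF+CDX1 replicate 2. Intestinal epithelial transcription factor genes held 22 tested regions, of which 0 rose and 2 fell, 1 of them in GATA4, an endodermal zinc-finger factor. The GATA4 region (chromosome 8, 11736492 to 11736651) had 3, 15 and 7 counts in EV and 5, 5 and 2 in EHF+CDX1 (log2 change -2.17 ± 0.63, adjusted p = 0.036). The median log2 change of those 22 was 1.40, and 1.16 with empty groups at their bound, so the called regions and the median differ in sign.

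Signalling lists held few calls against EV. In growth factor and MAPK genes 1 of 25 rose, in intron 17 of MET, the receptor of hepatocyte growth factor (chromosome 7, 116781018 to 116781168). It had 1, 0 and 2 counts in EV, 2, 2 and 1 in EHF, 0, 3 and 2 in CDX1 and 12, 44 and 7 in EHF+CDX1, a ratio to EV of 8.68 (95% counting interval 2.84 to 43.2, edgeR adjusted p = 0.046). Among TGF-beta and BMP genes 1 of 18 fell, in LTBP1, which holds latent TGF-beta in the matrix (log2 change -1.79 ± 0.47, adjusted p = 0.019). Among actin and focal adhesion genes 1 of 61 fell, the ARHGEF28 region with its mitochondrial match. None of 26 regions in Wnt and stem cell genes, 27 in junction and polarity genes or 24 in epithelial-mesenchymal transition genes was called. Median log2 changes were 0.23 in growth factor genes, 0.16 in TGF-beta genes, 0.09 in actin genes, 0.76 in Wnt genes, 0.21 in junction genes and 0.16 in transition genes, and with empty groups at their bound 0, 0.09, 0, 0.49, 0.21 and 0.02, beside 0.17 and 0.07 for all distal intronic regions.

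Fatty acid and xenobiotic metabolism genes held 22 tested regions, of which 1 rose and 2 fell against EV (median log2 change 0.22, also at the bound). The higher one is in intron 3 of ABCB1, the P-glycoprotein drug pump (chromosome 7, 87592366 to 87592516), with 1, 1 and 1 counts in EV, 2, 0 and 2 in EHF, 3, 2 and 4 in CDX1 and 14, 33 and 11 in EHF+CDX1. Its ratio to EV was 7.99 (95% counting interval 2.60 to 39.9, edgeR adjusted p = 0.032). The lower ones are the ABCC4 region above and a region in intron 1 of ELOVL5, a fatty acid elongase (chromosome 6, 53326614 to 53326764), with 4, 8 and 3 counts in EV, 5, 14 and 3 in EHF, 6, 11 and 4 in CDX1 and 0, 2 and 1 in EHF+CDX1. The ELOVL5 region was lower in EHF+CDX1 than in every other line, by a ratio of 12.1 against EV (3.42 to 65.2, adjusted p = 0.018). Its 3 EHF+CDX1 libraries lay below all 9 others on the CPM scale. Of the regions named from these lists the ABCC4 region, lost under 5 other alternatives, alone was called without EHF+CDX1 replicate 2, and adjusted p were 0.11 to 0.31 for GATA4, MET, LTBP1, ABCB1 and ELOVL5.

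Neuronal and synaptic adhesion genes, which belong to another cell type, held 179 tested regions in 37 of 45 genes, more than any other list. Against EV, 6 rose and 2 fell (4.47% called). Against EHF 12 rose and 2 fell (7.82%), and against CDX1 6 rose and 1 fell (3.91%). Over all distal intronic regions these shares were 3.36%, 6.55% and 3.50%. Their median log2 change against EV was 0.54, and 0.18 with empty groups at their bound. Besides GRIK2, CNTNAP2 and NLGN1 above, the smallest p belonged to LRP1B, a lipoprotein receptor gene (chromosome 2, 141899883 to 141900033, intron 1), with 0, 0 and 0 counts in EV and in EHF, 0, 5 and 0 in CDX1 and 8, 46 and 2 in EHF+CDX1 (at least 1.70-fold higher than EV, edgeR adjusted p = 0.016). None of these 4 was called without replicate 2.

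In the comparisons with the single-factor lines the remaining lists gave 0 to 3 calls in a direction. Against EHF, 3 regions rose among intestinal transcription factor genes, a pair in HNF4G and 1 in ELF1. Wnt genes gave 2 higher (PRICKLE1 and LGR4), actin genes 2 higher and 2 lower, metabolism genes 1 and 1, and enterocyte (CDH17), junction (MAGI2) and growth factor (MET) genes 1 higher each, with 0 in TGF-beta and transition genes. Against CDX1, enterocyte (VIL1) and growth factor (MET) genes gave 1 higher each, junction genes 1 lower (MAGI1), and actin and metabolism genes 2 lower each, with 0 in the other 4 lists. None of these calls against EHF or CDX1 was kept without EHF+CDX1 replicate 2.

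Called regions were spread over many host genes. The 85 higher regions lay in 80 genes and the 54 lower in 50. DGKB, a diacylglycerol kinase gene, held 2 higher of 7 regions, FOXP2 2 of 4, CDH18 2 of 3 and CCDC59 and GRM3 2 of 2. Lower pairs lay in MRPS22 (8 regions), CDH13 (7), SLC25A48 (6) and SORCS3 (4). In GPC5, where 1 of 13 was called, EHF+CDX1 replicate 2 was the highest library in all 13, and their median in the single-factor libraries was 0.368 CPM.

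By chromosome, called regions are given beside 3.36% of all distal intronic regions and 2.57% of all regions, and were not tested. Chromosome 7 held 18 higher and 3 lower of 350 tested, chromosome 3 held 11 and 6 of 411, and chromosome 2 held 11 and 1 of 467. Chromosome 10 held 1 and 9 of 231, chromosome 16 held 0 and 5 of 69, and chromosome 13 held 5 and 1 of 209. The median log2 change against EV was -0.74 on chromosome 10, -0.80 on chromosome 16 and 0.87 on chromosome 13, beside 0.17 over all. Over the 3 upper classes of level it was -0.79, -1.09 and -0.11, beside -0.42 over all, so the values of chromosome 13 and of all regions turned sign. Gene starts of the same chromosomes had medians of -0.37, -0.30 and 0.60, beside 0.16 over all. These chromosomes are named after their values were seen. In the single-factor lines the medians of distal intronic regions on chromosome 10 were -0.14 in EHF and -0.12 in CDX1, on chromosome 16 they were -0.14 and -0.28, and on chromosome 13 they were -0.23 and -0.17. Whether the difference in level of whole chromosomes takes part in the calls in SORCS3, ANK3, CDH13 and ENSG00000286221, which lie on chromosomes 10 and 16, was not tested.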

How the data were processed

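ATAC-seq was done on 4 HCT116 lines with 3 libraries each, grouped by the labels. The authors aligned reads to hg38 with Subread 2.0.0 and retained those with 1 position, ran HOMER 4.7 for peaks at a false discovery rate of 1e-05, merged the peaks of the samples and counted reads per region with featureCounts 2.0.0, with versions as in the submitters' processing notes. The deposited table holds these raw counts. Handling of duplicate reads and a shift for the transposase are not given in the sources used here. Log2 CPM files were not used. Coordinates were read as inclusive at both ends.

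Regions were placed against GENCODE release 44. A mitochondrial match is a blastn 2.17.0 hit of at least 40 bases at 80% identity. Regions with at least 3 CPM in 1 library (30154) were tested in R 4.3.3 with edgeR 4.0.16, using TMM scaling and robust quasi-likelihood tests on all 12 libraries with 1 term per group, 8 residual degrees of freedom and a common biological coefficient of variation of 0.335. A call is a Benjamini-Hochberg adjusted p under 0.05 over all regions. The model of the study was limma voom with quantile normalisation, which was run as an alternative (limma 3.58.1), as was DESeq2 1.42.0. On simulated counts for 30154 regions of EHF+CDX1 against EV, 11% of 100 regions changed 2-fold and 87% of 100 changed 4-fold were recovered. The changed regions were drawn only from regions of high mean CPM, whereas the highest of 5 classes of distal intronic regions begins at 5.72 CPM. The simulated spread was the common value, and the median for distal intronic regions was 0.377. These shares therefore do not give what could be detected in most distal intronic regions.

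Named regions were the 10 called regions of largest change in each direction against EV, and 5 against each single-factor line, among those with a mean of at least 20 counts in 1 group and no overlap of the groups. Added to these were the 5 smallest p in each single-factor comparison, interaction calls, the 10 highest by lowest library, up to 4 calls per gene list, and regions called also without EHF+CDX1 replicate 2. A fold against a group without counts uses a floor of 3 counts per library and is a lower bound. For a group total of 1 to 3 counts the ratio is given with a 95% exact interval, which covers counting error only. The regions and the 10 gene lists were chosen with earlier results of these data known. Figures were drawn in Python 3.11.15. Some named regions and sequences are not reported here.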

Additional observations from a re-analysis of the deposited data

Results flagged for a closer look

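In 4 distal intronic regions edgeR's quasi-likelihood test of the interaction called the double line higher than the EHF and CDX1 effects added on the log2 scale. The excess was 9.59 ± 1.92 (SE, adjusted p = 0.0049) in EYS, 8.41 ± 1.85 (adjusted p = 0.019) in SPTBN1, 8.13 ± 1.91 (adjusted p = 0.041) in GRM3 and 5.50 ± 1.31 (adjusted p = 0.044) in TBX15. Against EV itself the double line was called in GRM3 (log2 change 3.10 ± 0.73, adjusted p = 0.0075) and not in SPTBN1 (2.34 ± 0.76, adjusted p = 0.071), EYS (2.005 ± 0.75, adjusted p = 0.12) or TBX15 (0.75 ± 0.66, adjusted p = 0.56), and in each of the 4 both single-factor means lay below the EV mean. In EYS, SPTBN1 and GRM3 at least 1 single-factor line had no count, so these sizes depend on the prior count of the fit. EHF+CDX1 replicate 2 held 48 counts in EYS, 53 in SPTBN1, 90 in GRM3 and 53 in TBX15, whereas replicates 1 and 3 held 2 to 15. Without that library none of the 4 passed. Its part in the excess beyond that was not tested.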

How the results depend on the processing

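Calls in distal intronic regions depended on the test and on single libraries. DESeq2 called 14 against EV (6 higher, 8 lower), 27 against EHF (24 higher, 3 lower) and 9 against CDX1 (8 higher, 1 lower), and 1 interaction. Over all regions it called 97, 152 and 80, and 6 interactions. Leaving out 1 library gave 7 to 184 calls against EV, 11 to 402 against EHF, 4 to 239 against CDX1, 0 to 1 for EHF against EV, 0 to 0 for CDX1 against EV and 0 to 10 interactions. The fewest calls in each EHF+CDX1 comparison and in the interaction came without EHF+CDX1 replicate 2. With that library thinned to the depth of EHF+CDX1 replicate 1, an alternative chosen after seeing the data, there were 96, 194 and 101 calls and 2 interactions. Over all regions the thinned run gave 546, 1006 and 574 calls and 26 interactions. Interactions also numbered 2 with a filter of 3 CPM in 2 libraries and 2 without robust fitting. Voom called 1 region for EHF against EV. Under voom the median log2 change of distal intronic regions turned to -0.20 against EV, -0.08 against EHF and -0.19 against CDX1.

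Replicate numbers fell short of the rule for pairing, which asks every same-numbered pair to correlate above 0.1 in its deviations: 5 of 18 did, at -0.01 to 0.30 over all, against 0 of 36 differently numbered pairs. Replicate 2 had the highest share of counts in distal intronic regions in every line. With the replicate number as a block there were 263 calls against EV (125 higher, 138 lower), 338 against EHF, 216 against CDX1 and 14 interactions (11 above the sum, 3 below). Over all regions the block gave 1711, 1796 and 1243 calls and 134 interactions.

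Mean shares of counts over regions more than 10 kb from a start were 5.35%, 5.52%, 5.60% and 5.66% for EV, EHF, CDX1 and EHF+CDX1. For all distal intronic regions, mitochondrial matches included, mean shares of all counts were 8.63%, 4.22%, 4.34% and 5.08% in the same order. These shares include mitochondrial reads and, in the total, reads of the introduced cDNA, both of which differed between the lines as given above. Of the single-region results 64 were recomputed under every alternative that could give them. No sign turned, but 44 of the 64 calls were lost without EHF+CDX1 replicate 2, 35 under DESeq2 and 22 without EV replicate 2. The 64 include regions named because their calls stood without EHF+CDX1 replicate 2, so the number kept without it was set by that choice. Over all distal intronic regions, leaving it out took 139 calls against EV to 7, 271 against EHF to 11 and 145 against CDX1 to 4. Interactions went from 4 to 0. The same step took the calls over all regions from 776 to 60, 1311 to 74 and 783 to 59, and interactions from 37 to 4. A median of 2 to 9 counts per region in 11 libraries limits what could be detected.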
